A study of Mus musculus with 40 samples.

Results

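The fibrillar matrix and crosslinking genes are 43 genes that encode collagens, the enzymes that build and crosslink them, elastic fibre proteins, proteoglycans of collagen fibrils and adhesive matrix proteins. They were listed by name, and all 43 were found among the 23079 gene identifiers of the deposited count matrix. RNA was sequenced from cervix and from myometrium, the muscle wall of the uterus, of pregnant C57BL/6 mice at 18.5 days post coitum. The 4 groups of 10 libraries are cervix and myometrium of mice given human chorionic gonadotropin (hCG, a hormone of the human placenta that binds the luteinizing hormone receptor) by intraperitoneal injection, and the same tissues of mice given phosphate-buffered saline (PBS) that way. The dose and the time from injection to collection were not given in the sources used here, and the labels do not say that equal library numbers are the same animal. All 4 groups share the strain and the stage of pregnancy.

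Fibrillar collagens are made as procollagen chains that are hydroxylated and folded in the endoplasmic reticulum, cut outside the cell and assembled into fibrils, which lysyl oxidases then crosslink. Small proteoglycans sit on the fibrils and control their width, while elastin, laid on a scaffold of fibrillin microfibrils and fibulins, gives elastic recoil. In the cervix of pregnant mice the matrix softens well before birth, and fewer and less mature crosslinks are a known feature of that softening. The myometrium holds its matrix between bundles of smooth muscle.

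To show the gene starts of members with different patterns, the 250 bases before the annotated start of 4 members are printed from the RefSeq promoter table of build GRCm38.p6, 5′ to 3′ on the strand of the gene. Fmod stood higher in cervix, and Loxl4 is the lysyl oxidase with a window in that table and stood lower in cervix. Fbln5 rose with hCG in cervix when all libraries were used, a call lost in most fits that left out 1 library. The abundant collagen Col1a2 passed no test. The windows are chr1:134037004-134037253 (plus strand) for Fmod, chr19:42612807-42613056 (minus strand) for Loxl4, chr12:101819120-101819369 (minus strand) for Fbln5 and chr6:4505368-4505617 (plus strand) for Col1a2. Capitals mark the GC box GGGCGG or its reverse complement CCGCCC, and the CCAAT box CCAAT or ATTGG.
Fmod: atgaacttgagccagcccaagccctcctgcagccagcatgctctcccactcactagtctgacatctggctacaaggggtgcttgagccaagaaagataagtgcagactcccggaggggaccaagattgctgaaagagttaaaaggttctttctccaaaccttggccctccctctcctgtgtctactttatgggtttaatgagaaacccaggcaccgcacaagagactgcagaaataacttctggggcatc
Loxl4: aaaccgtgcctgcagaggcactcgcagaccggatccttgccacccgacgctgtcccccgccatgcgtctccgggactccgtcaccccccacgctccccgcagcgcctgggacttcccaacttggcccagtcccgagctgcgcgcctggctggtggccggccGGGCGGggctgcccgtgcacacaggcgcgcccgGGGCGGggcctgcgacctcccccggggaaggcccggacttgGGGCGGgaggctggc
Fbln5: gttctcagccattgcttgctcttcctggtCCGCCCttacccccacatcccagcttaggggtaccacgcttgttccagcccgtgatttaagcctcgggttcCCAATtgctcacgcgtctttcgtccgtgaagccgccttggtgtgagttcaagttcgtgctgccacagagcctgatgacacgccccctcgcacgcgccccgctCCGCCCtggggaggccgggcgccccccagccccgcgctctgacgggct
Col1a2: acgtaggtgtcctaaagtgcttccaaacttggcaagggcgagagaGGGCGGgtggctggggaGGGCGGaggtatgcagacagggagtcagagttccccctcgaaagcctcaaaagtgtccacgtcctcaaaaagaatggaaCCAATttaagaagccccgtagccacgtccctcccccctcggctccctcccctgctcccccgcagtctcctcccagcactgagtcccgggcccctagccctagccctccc
The Loxl4 window held 3 GC boxes, the Fbln5 and Col1a2 windows held 2 GC boxes and 1 CCAAT box each, and the Fmod window held none of the 4 motifs searched on both strands (TATAAA and TGANTCA were the others). Windows were found for 28 of the 43 members, some with several starts, 34 windows in all. A GC box was in 61.8% of the member windows and in 32.7% of all 32851 windows of this length, and CCAAT in 20.6% and 33.8%. TATAAA was in 17.6% of member windows and in 12.4% of all windows, and TGANTCA in 2.9% and 6.7%. These matches describe letters and were set against no measurement of binding.

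Levels are given in CPM, the count of a gene scaled to the size of its library, here after TMM scaling. The CPM of all members together came to a median of 3.21% of the TMM-scaled library size in hCG cervix and 2.61% in PBS cervix. In myometrium it came to 4.40% with hCG and 4.61% with PBS. Exon length is here that of all annotated exons of a gene merged, which can exceed the length of its main transcript. The order of members per kilobase and the ratios between genes depend on this choice. The same length was used in every group. Per kilobase (kb) of exon, the most abundant member in every group was Sparc, a collagen-binding matricellular protein, at 782 ± 286 CPM per kb in hCG cervix and 724 ± 324 in PBS cervix (SD, n = 10 each). It stood at 1210 ± 224 CPM per kb in hCG myometrium and 1281 ± 389 in PBS myometrium (SD, n = 10 each). Behind it in cervix came the fibrillar collagen chains Col3a1, at 588 ± 195 CPM per kb with hCG and 503 ± 224 with PBS, and Col1a2, at 355 ± 157 with hCG and 373 ± 140 with PBS (SD, n = 10 each). These neighbours in the order overlapped within their spread. In myometrium the adhesive proteins stood among the collagens, with Postn at 682 ± 216 CPM per kb with hCG and 633 ± 199 with PBS, and Fn1 at 421 ± 95.1 with hCG and 567 ± 220 with PBS (SD, n = 10 each). The lowest member was the fibrillin Fbn2 in cervix, at 1.02 ± 0.42 CPM per kb with hCG and 1.13 ± 1.10 with PBS, and the proteoglycan Fmod in myometrium, at 2.55 ± 1.28 with hCG and 3.03 ± 1.17 with PBS (SD, n = 10 each). Libraries of a group varied more in cervix: the median coefficient of variation over the 43 members was 44.2% in hCG cervix and 43.7% in PBS cervix, against 31.7% in hCG myometrium and 29.4% in PBS myometrium. Every member had at least 16 counts in every library.

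Total counts per library ran from 6613775 to 22274244 in hCG cervix, from 7255131 to 25028360 in PBS cervix, from 5449239 to 20603741 in hCG myometrium and from 5933199 to 20108002 in PBS myometrium. Some libraries stood apart by markers of other tissues. Among hCG cervix libraries, number 1 was highest in skeletal muscle markers (5855 CPM, group median 90.1), number 3 in adipocyte markers (3123 CPM, median 502) and number 5 in urothelial markers (2277 CPM, median 18.7). Number 1 was also highest in 8 cartilage and bone markers, collagen chains among them, at 214 CPM. The group median of these was 1.28 CPM and the next highest library had 3.22 CPM. Yolk sac and fetal liver markers passed 5000 CPM in 5 hCG and 3 PBS myometrium libraries. Results that rest on these libraries are also given without them.

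Most of the matrix genes stood lower in cervix than in myometrium, under either treatment, while the chains of the main collagens did not pass the test. In hCG mice 29 of 43 members passed edgeR's quasi-likelihood test with a Benjamini-Hochberg adjusted p under 0.05, of which 2 stood higher and 27 lower in cervix. Of all 14974 genes tested there, 43.7% passed, 24.3% higher and 19.4% lower. In PBS mice 33 of 43 passed, 3 higher and 30 lower, against 54.0% of all 14545 genes, 28.0% higher and 26.1% lower. The median log2 fold change, cervix over myometrium, of the members was -0.77 in hCG mice and -0.93 in PBS mice, beside medians of 0.07 and 0.04 over all genes tested. The 2 comparisons share no library. The study states 10 mice per treatment, by which cervix and myometrium libraries would share animals, but the labels do not tie them. Some label numbers occur in only 1 tissue of a treatment, such as 8 in hCG myometrium and R3 in hCG cervix. The fits treat all libraries as independent. The 26 members lower in both make up 96.3% of those lower in hCG mice and 86.7% of those lower in PBS mice. Col12a1 and Fmod were higher in both. In these bulk samples, fewer cells of a type and less RNA per cell cannot be told apart.

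**Figure D1:**
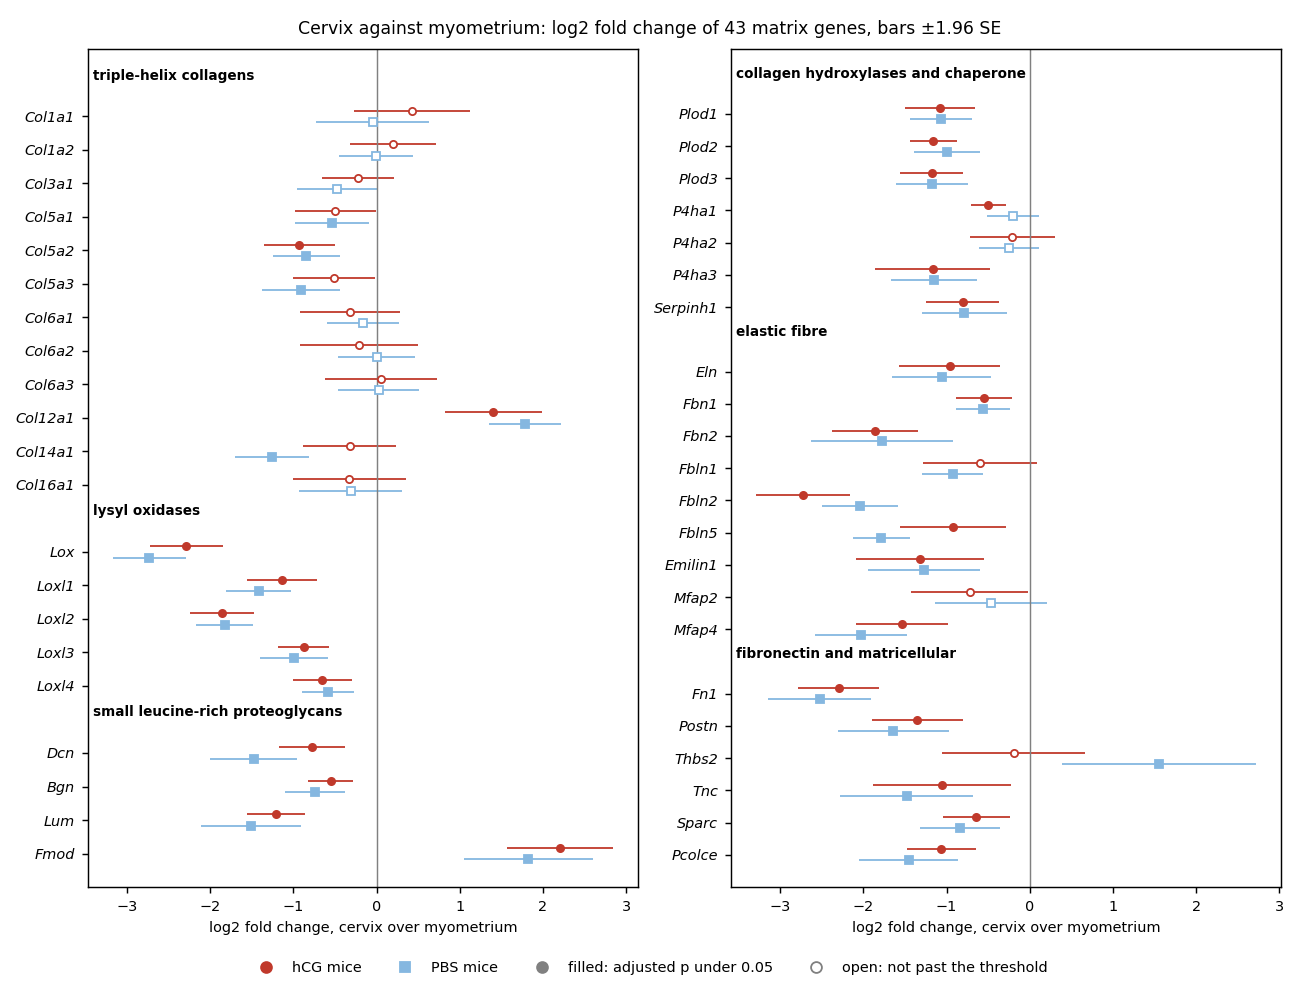
Log2 fold change of each member, cervix over myometrium, in hCG mice (circles) and PBS mice (squares), with bars of ±1.96 SE and filled symbols where the edgeR adjusted p was under 0.05. All 5 lysyl oxidases lie left of 0 in both, while Col1a1, Col1a2 and the 3 type VI chains lie across it.

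Of the 12 collagen chains, 1 was higher and 1 lower in cervix of hCG mice, and 1 was higher and 4 lower in PBS mice. Col1a1 and Col1a2 encode the chains of type I collagen, the main fibril former of tendon, bone and skin. Col1a1 ran from 487 to 3532 CPM with a median of 1717 in cervix of hCG mice, against 527 to 2398 with a median of 1117 in their myometrium. After PBS it ran from 500.1 to 3350 with a median of 1976 in cervix, against 627 to 4675 with a median of 1747 in myometrium. The ranges of the 2 tissues overlapped almost whole. The Col1a1 log2 fold change was 0.43 in hCG mice (interval of ±1.96 SE from -0.27 to 1.12) and -0.05 in PBS mice (-0.72 to 0.63). Col1a2 gave 0.19 in hCG mice (-0.32 to 0.71) and -0.01 in PBS mice (-0.46 to 0.44).

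Col3a1, the type III chain that copolymerises with type I, had medians of 5666 CPM in cervix and 6373 CPM in myometrium of hCG mice, and of 4594 CPM in cervix and 6792 CPM in myometrium of PBS mice. Its log2 fold change was -0.22 in hCG mice (interval of ±1.96 SE from -0.65 to 0.21) and -0.48 in PBS mice (-0.96 to 0.00). Without PBS cervix library R3 the PBS value was -0.61 and past the threshold. The 3 chains of type VI collagen, which forms beaded filaments around cells, gave -0.32 to 0.06 in hCG mice and -0.16 to 0.03 in PBS mice. None of them, nor Col16a1, passed in either, and every one of these intervals included 0.

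The chains of type V collagen, which nucleates type I fibrils and limits their diameter, stood lower in cervix by differing degrees. Col5a2 was lower in cervix in both, with log2 fold changes of -0.93 in hCG mice and -0.85 in PBS mice (edgeR adjusted p = 0.00166 and 0.00145). Col5a3 stood at -0.51 in hCG mice, which did not pass, and was lower in PBS mice at -0.91. Col5a1 likewise stood at -0.49 in hCG mice without passing and was lower in PBS mice at -0.54. The Col5a1 call in PBS mice, with an edgeR adjusted p of 0.0487, held in 11 of 20 fits that left out 1 library each, and was lost without PBS cervix library 1, 2, 3, 4 or 7 or PBS myometrium library 6, 10, R3 or R4.

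Col12a1 and Col14a1, both fibril-associated collagens that sit on the surface of type I fibrils, differed from each other. Col12a1 lies on chromosome 9 from 79598987 to 79721141 (GRCm38.p6, RefSeq, minus strand). It ran from 282 to 2030 CPM (median 1019) in cervix of hCG mice, against 148 to 742 (median 434) in their myometrium. Its range in PBS mice was 547 to 1625 CPM (median 976) in cervix, against 182 to 471 (median 272) in myometrium. In hCG mice 8 of 10 cervix libraries lay above every myometrium library, and in PBS mice the tissues did not overlap. Its log2 fold change was 1.40 in hCG mice (SE 0.30, edgeR adjusted p = 0.00073) and 1.78 in PBS mice (SE 0.22, edgeR adjusted p = 5.37e-07). Col14a1 stood at -0.32 on the log2 scale in hCG mice (SE 0.28, edgeR adjusted p = 0.371) and was lower in cervix of PBS mice at -1.25 (SE 0.23, edgeR adjusted p = 7.76e-05). Without hCG cervix library 5 the hCG value was -0.63 and past the threshold.

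All 5 lysyl oxidases were lower in cervix, in hCG mice and in PBS mice alike. Lox, which oxidises lysines of collagen and elastin so that crosslinks can form, ran from 43.2 to 137 CPM (median 82.9) in cervix of hCG mice, against 283 to 842 (median 396) in their myometrium. In PBS mice it ran from 34.8 to 103.5 CPM (median 55.8) in cervix, against 206 to 684 (median 346) in myometrium. No cervix library reached the lowest myometrium library in either. The Lox log2 fold change was -2.28 in hCG mice (SE 0.22, edgeR adjusted p = 5.68e-08) and -2.73 in PBS mice (SE 0.22, edgeR adjusted p = 1.13e-09), the largest fall among the members in PBS mice.

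Loxl2, a relative that also crosslinks basement membrane collagen, ran from 55.0 to 151 CPM (median 102) in cervix of hCG mice, against 214 to 516 (median 382) in their myometrium. After PBS it ran from 46.3 to 132 CPM (median 103) in cervix, against 250.2 to 499 (median 324) in myometrium. Again the ranges did not overlap. Its log2 fold changes were -1.86 in hCG mice and -1.82 in PBS mice (edgeR adjusted p = 1.6e-07 and 1.44e-08). Loxl1, needed for elastic fibre upkeep in adult mice, gave -1.13 in hCG mice and -1.42 in PBS mice. Loxl3 gave -0.88 in hCG mice and -0.99 in PBS mice, and Loxl4 gave -0.65 in hCG mice and -0.58 in PBS mice, all past the threshold. Part of the Loxl3 exons, 11.6%, overlaps a gene on the other strand, and the strand used in counting was not given in the sources used here.

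The level of the lysyl oxidases relative to that of the main fibrillar chains was taken within each library, per kb of exon. The 5 lysyl oxidases summed to a median of 4.15% of Col1a1, Col1a2 and Col3a1 in hCG cervix (2.43% to 8.85%), against 15.7% in hCG myometrium (11.8% to 25.7%). In PBS mice they summed to 3.62% in cervix (2.70% to 5.30%), against 12.2% in myometrium (8.42% to 26.0%). No cervix library reached a myometrium library of the same treatment, as the plot of ratios shows. Lox per Col1a1 alone had medians of 10.1% in hCG cervix and 51.0% in hCG myometrium, and of 3.27% in PBS cervix and 25.6% in PBS myometrium. These ratios are a description, with no test, since the same counts gave the calls.

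**Figure D2:**
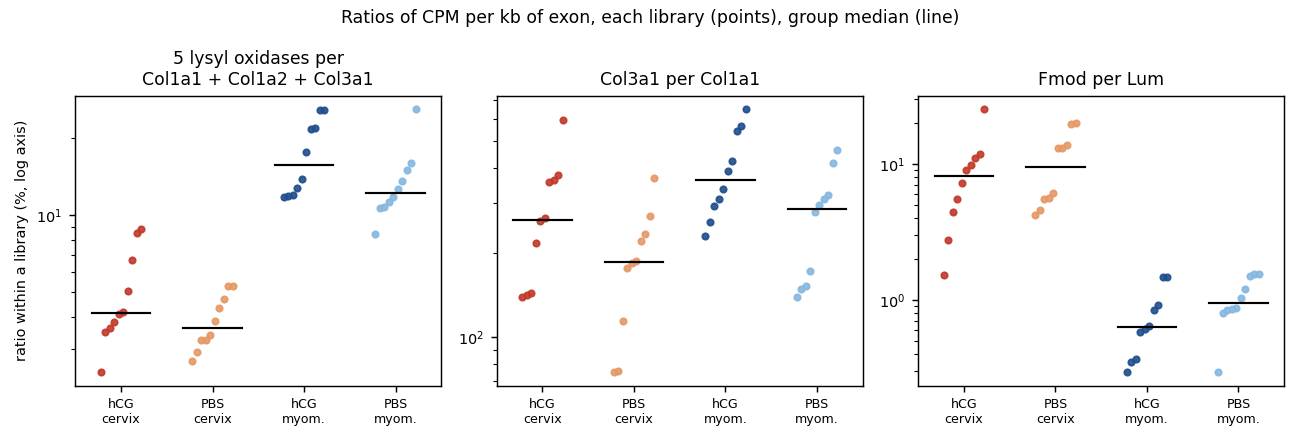
Ratios of CPM per kb of exon within each library (points, percent on a log axis) with the group median (line), for the 5 lysyl oxidases over Col1a1, Col1a2 and Col3a1, for Col3a1 over Col1a1 and for Fmod over Lum, 10 libraries per group. The lysyl oxidase ratio of cervix stays at or under 8.85%, while that of myometrium starts at 8.42%, and Col3a1 over Col1a1 overlaps between all groups.

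Among the collagen hydroxylases and the collagen chaperone, 6 of 7 were lower in cervix of hCG mice and 5 of 7 in PBS mice, with none higher. The lysyl hydroxylases Plod1, Plod2 and Plod3 set the lysine form from which stable crosslinks are made. They gave log2 fold changes of -1.08, -1.16 and -1.18 in hCG mice and -1.06, -0.995 and -1.18 in PBS mice, all past the threshold. Plod2, which acts on the collagen telopeptides, ran from 85.2 to 145 CPM (median 109) in cervix of hCG mice, against 169 to 398 (median 231) in their myometrium, without overlap. Its range in PBS mice was 57.4 to 221 CPM (median 99.4) in cervix, against 177 to 300 (median 195) in myometrium, with overlap. Of the Plod3 exon length 11.9% overlaps other genes, nearly all of it on the other strand.

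The prolyl 4-hydroxylase subunits, whose product hydroxyproline stabilises the triple helix, were split. P4ha3 was lower in cervix by -1.17 in hCG mice and -1.15 in PBS mice on the log2 scale, and P4ha2 passed in neither. P4ha1 was lower in hCG mice (-0.50, edgeR adjusted p = 0.000809) and stood at -0.20 in PBS mice (edgeR adjusted p = 0.305). For P4ha1 the difference between these tissue contrasts, which is the same quantity as the difference between the hCG responses, was -0.30 (edgeR adjusted p = 0.383). Serpinh1, the chaperone Hsp47 that binds folded procollagen, was lower in cervix in both, at -0.81 in hCG mice and -0.79 in PBS mice.

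Elastic fibre genes were lower in cervix in 7 of 9 cases in hCG mice and 8 of 9 in PBS mice. Eln, elastin itself, had medians of 130 CPM in cervix and 218 CPM in myometrium of hCG mice, and of 96.3 CPM in cervix and 167 CPM in myometrium of PBS mice. Its log2 fold change was -0.96 in hCG mice and -1.06 in PBS mice (edgeR adjusted p = 0.0153 and 0.00553), with overlapping ranges. The fibrillin Fbn1, the backbone of microfibrils, gave -0.55 in hCG mice and -0.56 in PBS mice, and 20.1% of its exon length overlaps a gene on the other strand. The fibrillin Fbn2, best known from development, gave -1.86 in hCG mice and -1.78 in PBS mice.

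Of the elastic fibre genes the fibulin Fbln2 had the largest fall in both. Fbln2, which binds fibrillin and basement membranes, ran from 21.0 to 120.5 CPM (median 69.2) in cervix of hCG mice, against 216 to 644 (median 369) in their myometrium. In PBS mice it ran from 45.1 to 228 CPM (median 89.3) in cervix, against 317 to 613 (median 419) in myometrium. The ranges did not overlap in either, and the log2 fold change was -2.73 in hCG mice (SE 0.29, edgeR adjusted p = 1.96e-07) and -2.04 in PBS mice (SE 0.23, edgeR adjusted p = 1.74e-07).

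Fbln5, required for elastic fibre assembly in mice, was lower in cervix by -0.93 in hCG mice (edgeR adjusted p = 0.0254) and -1.79 in PBS mice (edgeR adjusted p = 1.79e-08). The tissues overlapped in hCG mice and not in PBS mice. Mfap4, a microfibril-associated protein, gave -1.54 in hCG mice and -2.03 in PBS mice, and Emilin1, found between elastin and microfibrils, gave -1.32 in hCG mice and -1.27 in PBS mice. Fbln1 did not pass in hCG mice at -0.60, where leaving out hCG cervix library 5 gave -0.98 and a pass, and was lower in PBS mice at -0.93. Mfap2 did not pass in either with all libraries, and in PBS mice it passed without cervix library R3 (-0.78).

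Of the 4 small leucine-rich proteoglycans, 3 were lower and 1 was higher in cervix, the same 3 and the same 1 in both. Decorin, Dcn, which regulates fibril spacing, ran from 1157 to 4149 CPM (median 2038) in cervix of hCG mice, against 2737 to 5477 (median 3239) in their myometrium. After PBS it ran from 289 to 1681 CPM (median 1407) in cervix, against 2056 to 4278 (median 3448) in myometrium. The tissues overlapped in hCG mice and not in PBS mice, and the log2 fold change was -0.77 in hCG mice (SE 0.20) and -1.48 in PBS mice (SE 0.27). Lumican, Lum, a further fibril-binding proteoglycan, gave -1.21 in hCG mice and -1.51 in PBS mice. Biglycan, Bgn, the closest relative of decorin, gave -0.55 in hCG mice and -0.74 in PBS mice.

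Fibromodulin, Fmod, which binds collagen fibrils and is known to steer lysyl oxidase crosslinking, went the other way. Fmod lies on chromosome 1 from 134037254 to 134048280 (plus strand). It ran from 10.3 to 72.9 CPM (median 43.05) in cervix of hCG mice, against 3.90 to 16.1 (median 7.29) in their myometrium. Its range in PBS mice was 5.17 to 104 CPM (median 29.2) in cervix, against 4.37 to 18.1 (median 9.16) in myometrium. Of the cervix libraries, 9 of 10 in hCG mice lay above every myometrium library, and in PBS mice the low cervix libraries reached into the myometrium range. Its log2 fold change was 2.20 in hCG mice (SE 0.33, edgeR adjusted p = 1.52e-05) and 1.82 in PBS mice (SE 0.40, edgeR adjusted p = 0.00051). Within a library, Fmod per kb was a median 8.18% of Lum in hCG cervix and 0.634% in hCG myometrium, and 9.56% in PBS cervix and 0.96% in PBS myometrium.

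**Figure D3:**
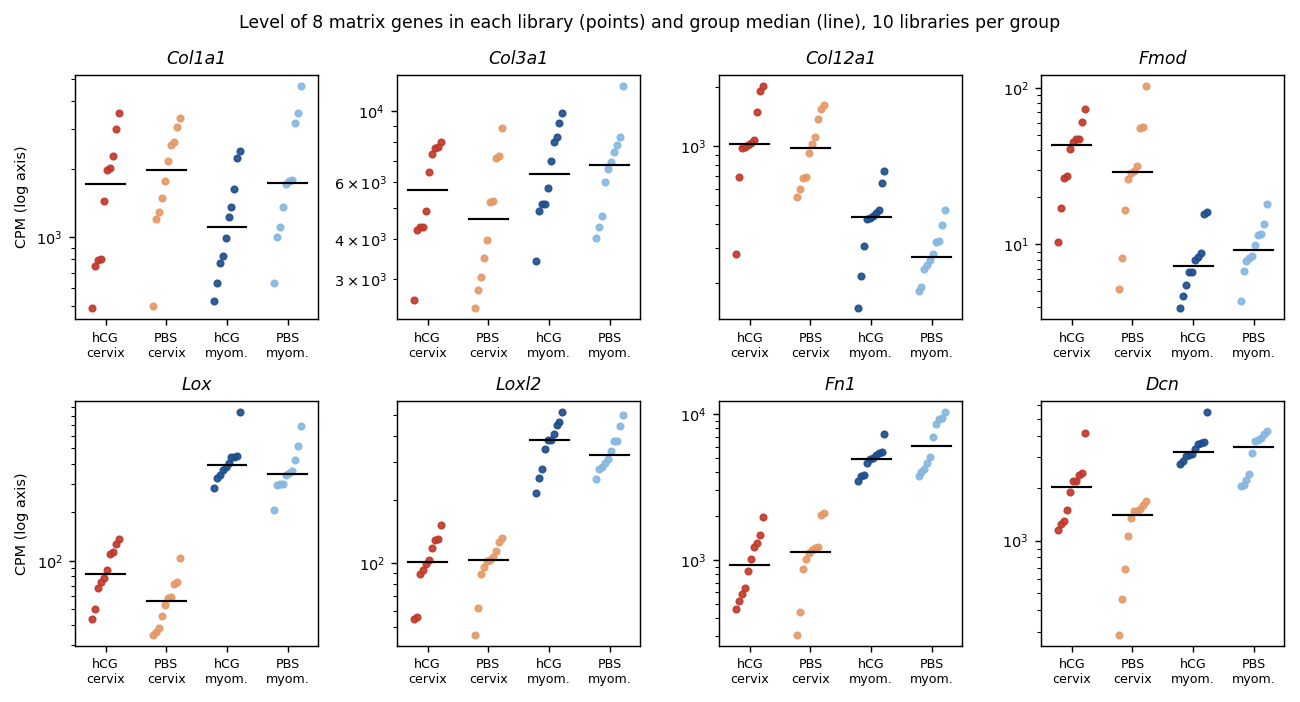
CPM of 8 members in each library (points, sorted within a group, log axis) with the group median (line), 10 libraries per group. Col1a1 and Col3a1 overlap between tissues, Col12a1 and Fmod have their higher medians in cervix, and Lox, Loxl2 and Fn1 of cervix lie wholly under those of myometrium with the same treatment.

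Fibronectin and the matricellular proteins were lower in cervix in 5 of 6 cases in both. Fn1, the fibronectin on which cells start to assemble collagen, on chromosome 1 from 71585473 to 71653280 (minus strand), ran from 464 to 1967 CPM (median 930) in cervix of hCG mice, against 3499 to 7315 (median 4969) in their myometrium. In PBS mice it ran from 309 to 2102 CPM (median 1144) in cervix, against 3775 to 10360 (median 6020) in myometrium. The ranges lay apart, and the log2 fold change was -2.30 in hCG mice (SE 0.25, edgeR adjusted p = 2.53e-07) and -2.52 in PBS mice (SE 0.32, edgeR adjusted p = 6.91e-07). Periostin, Postn, which aids collagen assembly and crosslinking, gave -1.35 in hCG mice and -1.64 in PBS mice. Pcolce, an enhancer of procollagen C-propeptide cleavage, gave -1.06 in hCG mice and -1.46 in PBS mice, and Sparc -0.64 in hCG mice and -0.84 in PBS mice.

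Tenascin C, Tnc, gave -1.06 in hCG mice and -1.48 in PBS mice. The hCG call, with an edgeR adjusted p of 0.0471, held in 5 of 20 fits that left out 1 library each, namely without hCG cervix library 5 or R3 or hCG myometrium library 6, 9 or 10. Thrombospondin 2, Thbs2, whose loss in mice gives malformed collagen fibrils, had a log2 fold change of -0.20 in hCG mice (SE 0.44, edgeR adjusted p = 0.746) and 1.55 in PBS mice (SE 0.60, edgeR adjusted p = 0.0323). The hCG value turned on cervix library 5 at 593 CPM, over a group median of 61.1 CPM, and was -1.0 (edgeR adjusted p = 0.00295) without it. The PBS value turned on cervix library 8 at 1309 CPM, over a group median of 106 CPM, and was 0.64 (edgeR adjusted p = 0.238) without it. It was also no longer called without PBS cervix library 4 (1.47) or PBS myometrium library 6 (1.505).

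Ranges that did not overlap at all between the tissues were found for 9 members in hCG mice, all lower in cervix, and for 10 in PBS mice, 9 lower and 1 higher. Over all genes tested such separation held for 7.61% in hCG mice and 14.3% in PBS mice. Lox, Loxl2, Fbln2 and Fn1 were among them in both.

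Markers of other cell types moved between the tissues too, and their part in these results was not tested. The summed level of 9 fibroblast markers ran from 899 to 1473 CPM (median 1235) in hCG cervix, against 1451 to 2384 (median 1929) in hCG myometrium. After PBS it ran from 604 to 1413 CPM (median 1028) in cervix, against 1467 to 2255 (median 1868) in myometrium. The markers did not all follow their sum. In hCG mice 4 of the 9 were called lower in cervix, the median log2 fold change was -0.16 and 3 values were positive. In PBS mice 6 of the 9 were called lower, the median was -0.78 and 1 value was positive. The 9 smooth muscle markers had medians of 7868 CPM in hCG cervix and 20820 CPM in hCG myometrium, and of 6938 CPM in PBS cervix and 18890 CPM in PBS myometrium. The 10 squamous epithelial markers, which define the lining of the lower cervix, had medians of 5532 CPM in hCG cervix, 17030 CPM in PBS cervix, 12.5 CPM in hCG myometrium and 9.33 CPM in PBS myometrium. No fibroblast, smooth muscle or squamous marker was at 0 throughout a group, but many squamous markers were near 0 in myometrium. Of the 10, 8 had a mean under 1 CPM in hCG myometrium and 7 in PBS myometrium. Without the myometrium libraries over 5000 CPM of yolk sac markers, 22 members passed in hCG mice and 32 in PBS mice. Of all genes 4405 passed in hCG mice and 7639 in PBS mice, against 6547 and 7859 with all libraries. The calls lost in hCG mice, where 5 of 10 myometrium libraries were left out, were those of Loxl4, Eln, Fbn1, Fbln5, Emilin1, Tnc and Sparc, whose log2 fold changes were -1.27 to -0.58 without these libraries and -1.32 to -0.55 with all. In PBS mice the Thbs2 call was lost, at 1.42, and without the PBS libraries with over 1% of counts in Lars2, a mitochondrial leucyl-tRNA synthetase, those of Serpinh1 (-0.74) and Thbs2 (0.91) were lost.

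Genes that work with the members were counted from 4 further lists. Beside them, 43.7% of all genes passed in hCG mice, 24.3% higher and 19.4% lower. In PBS mice 54.0% passed, 28.0% higher and 26.1% lower. Of procollagen folding, modification and processing genes, 1 of 18 tested was higher and 9 lower in cervix of hCG mice, and 3 higher and 9 lower in PBS mice. That is 55.6% of this list called in hCG mice and 66.7% in PBS mice. Colgalt1, which glycosylates hydroxylysine, gave -0.94 in hCG mice and -1.04 in PBS mice on the log2 scale, and the procollagen C-proteinase Tll1 -2.20 in hCG mice and -1.89 in PBS mice. Pcolce2, the second enhancer of C-propeptide cleavage, stood against Pcolce with 1.79 in hCG mice and 2.01 in PBS mice.

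Of basement membrane and network collagen genes, 5 of 25 were higher and 11 lower in hCG mice, and 5 higher and 13 lower in PBS mice. That is 64% called in hCG mice and 72% in PBS mice. Col17a1, a hemidesmosome collagen of squamous epithelium, led the higher ones with 7.76 in hCG mice and 8.87 in PBS mice, while the basement membrane chain Col4a1 gave -1.65 in hCG mice and -1.55 in PBS mice. Of other fibril and elastic fibre partners, 1 of 23 was higher and 9 lower in hCG mice, and 2 of 22 higher and 14 lower in PBS mice. The share called was 43.5% in hCG mice, near the 43.7% of all genes, and 72.7% in PBS mice. Ccn2, a matricellular growth factor modulator, gave -3.21 in hCG mice and -4.31 in PBS mice, and Aspn, a proteoglycan related to Dcn, -1.06 in hCG mice and -1.83 in PBS mice. Among the minor fibrillar collagens Col24a1 was higher, at 2.44 in hCG mice and 1.16 in PBS mice, and Col11a1 lower, at -1.73 in hCG mice and -1.78 in PBS mice.

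The effect of hCG was then compared within the cervix. Of 43 members, 2 (4.65%) rose and none fell in hCG cervix against PBS cervix in edgeR's quasi-likelihood test at an adjusted p under 0.05. Of all 14932 genes 8.91% passed, 4.74% higher and 4.17% lower, and the difference between these shares was not tested. Leaving out 1 library gave 0 to 5 members and 1 to 2065 of all genes. With an unadjusted p under 0.05 there were 7 members (16.3%), against 29.2% of all genes. The median log2 fold change, hCG over PBS, was 0.08 for the members and 0.01 over all genes. No member had ranges that lay apart, against 0.0469% of all genes.

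The 2 that rose were Col14a1 and Fbln5. Col14a1 lies on chromosome 15 from 55307644 to 55520803 (GRCm38.p6, RefSeq, plus strand). It ran from 84.0 to 566 CPM (median 181) in hCG cervix, against 29.1 to 130 (median 92.7) in PBS cervix. Of the hCG libraries 7 of 10 lay above every PBS library, and the log2 fold change was 1.30 (SE 0.32, edgeR adjusted p = 0.0298). Fbln5, on chromosome 12 from 101746565 to 101819119 (minus strand), ran from 17.2 to 128 CPM (median 23.6) in hCG cervix, against 9.06 to 28.1 (median 15.6) in PBS cervix. Only 3 of 10 hCG libraries lay above every PBS library, and the log2 fold change was 1.18 (SE 0.35, edgeR adjusted p = 0.0396).

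Both genes were highest in hCG cervix libraries 5 and 3. Col14a1 stood at 566 CPM in library 5 and 258 CPM in library 3, and Fbln5 at 128 and 67.6 CPM, the 2 highest values of each gene. Without library 5 the log2 fold changes were 0.998 for Col14a1 and 0.75 for Fbln5, neither past the threshold, while 406 of all genes still passed. Without hCG library 3 or PBS library 4, 7 or 8 neither gene was called, at 1.19 to 1.30 for Col14a1 and 1.06 to 1.17 for Fbln5, and of all genes 8, 1, 1 and 2 passed. The Fbln5 call was also lost without hCG library 7 or R3 or PBS library 1, 2, 6 or 10, at 1.14 to 1.24. Without hCG libraries 1, 3 and 5 they were 0.93 (edgeR adjusted p = 0.107) and 0.45 (edgeR adjusted p = 0.244). The 5 urothelial markers summed to a median of 18.7 CPM in hCG cervix and 18.0 CPM in PBS cervix but to 2277 CPM in library 5, where the 9 smooth muscle markers stood at 26320 CPM. The 7 adipocyte markers summed to medians of 502 CPM in hCG cervix and 317 CPM in PBS cervix but to 3123 CPM in library 3, 2054 CPM in library 1 and 1483 CPM in library 5. Library 1 had 129 CPM of Col14a1 and 24.1 CPM of Fbln5, within the range of the other hCG libraries. The part of these markers in the result was not tested.

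The cervix libraries also fell into 10 deeper and 10 shallower ones, with 6 hCG libraries among the deeper and 4 among the shallower. Within the deeper ones Col14a1 gave 1.69 (edgeR adjusted p = 0.0866) and Fbln5 1.72 (0.105), and within the shallower ones 0.80 (0.799) and 0.34 (0.823). With the depth class as a term they gave 1.25 (edgeR adjusted p = 0.0509) and 1.04 (0.0936). PBS libraries 5 to 8, with over 1% of their counts in Lars2, belonged to the shallower ones. Without them the values were 1.21 (edgeR adjusted p = 0.0924) and 1.09 (0.14). The direction was the same in each of these, and no call was. Of all genes, 242 passed in the deeper libraries, 0 in the shallower, 508 with the depth term and 1 without PBS libraries 5 to 8.

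**Figure D4:**
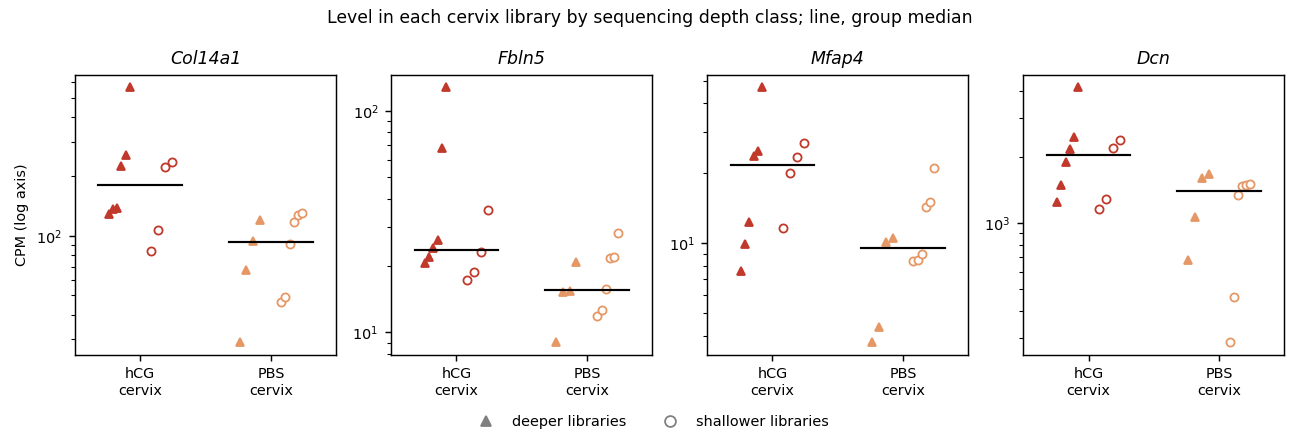
CPM of Col14a1, Fbln5, Mfap4 and Dcn in each cervix library (log axis), hCG left and PBS right, with the 10 deeper libraries as filled triangles, the 10 shallower as open circles and the group median as a line. The highest hCG value is library 5 for Col14a1 (566 CPM), Fbln5 (128 CPM) and Dcn (4149 CPM), and library 3 for Mfap4 (46.8 CPM).

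Mfap4, Dcn and Lox came next and did not pass. Mfap4 ran from 7.58 to 46.8 CPM (median 21.7) in hCG cervix, against 3.75 to 21.1 (median 9.55) in PBS cervix, which is 2.01-fold (log2 SE 0.33, edgeR adjusted p = 0.0543). Dcn ran from 1157 to 4149 CPM (median 2038) in hCG cervix, against 289 to 1681 (median 1407) in PBS cervix, with 0.85 (SE 0.29, edgeR adjusted p = 0.0674). Lox ran from 43.2 to 137 CPM (median 82.9) in hCG cervix, against 34.8 to 103.5 (median 55.8) in PBS cervix, with 0.64 (SE 0.22, edgeR adjusted p = 0.0664). In all 3 genes the groups overlapped. DESeq2 called these 3 as well, 5 members in all, and 2401 of all genes, against 1331 in edgeR's test. Fbln2 had the most negative value of those with an unadjusted p under 0.05, at -0.74 (SE 0.30, edgeR adjusted p = 0.107).

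None of the main collagen chains passed with hCG in cervix. The log2 fold change and its interval of ±1.96 SE were -0.22 (-0.92 to 0.48) for Col1a1, -0.06 (-0.60 to 0.48) for Col1a2 and 0.24 (-0.26 to 0.73) for Col3a1. Squamous markers had medians of 5532 CPM in hCG cervix and 17030 CPM in PBS cervix, fibroblast markers of 1235 CPM in hCG cervix and 1028 CPM in PBS cervix, and smooth muscle markers of 7868 CPM in hCG cervix and 6938 CPM in PBS cervix. All 9 squamous markers tested had negative values, and 1 passed the threshold. None of the 9 fibroblast or 9 smooth muscle markers passed. The 6 neutrophil markers ran from 14.7 to 237 CPM (median 63.1) in hCG cervix, against 10.2 to 25.2 CPM (median 16.4) in PBS cervix, with 4 of 6 past the threshold, all higher. The 7 macrophage and monocyte markers had medians of 513 CPM in hCG cervix and 389 CPM in PBS cervix, with 2 of 7 higher. The part of all these markers in the members' values was not tested. Of the further lists, the basement membrane list held 2 higher and 3 lower genes of 26, which is 19.2%. The partner list held 1 higher of 22 (4.5%), the procollagen list 1 lower of 18 (5.6%) and the minor fibrillar list none of 4 (1 with an unadjusted p under 0.05). Of all genes 8.91% passed. Col8a1, a network-forming chain of vessel walls, rose by 2.27 on the log2 scale (edgeR adjusted p = 0.0399), with its highest hCG value, 80.8 CPM, in library 5 against a group median of 5.95 CPM. Without library 5 it stood at 1.61 (edgeR adjusted p = 0.0923). The laminin chain Lama2 rose by 0.93, the laminin chain Lama3 of epithelial basement membrane fell by 1.10, and Aspn rose by 1.09. These 3 passed without library 5 as well. They were not followed in fits without other single libraries. Without PBS library 4, 7 or 8 only 1, 1 and 2 of all genes passed, so the 3 cannot all have held there. Without hCG libraries 1, 3 and 5 none of the 4 passed, nor did any other gene.

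**Figure D5:**
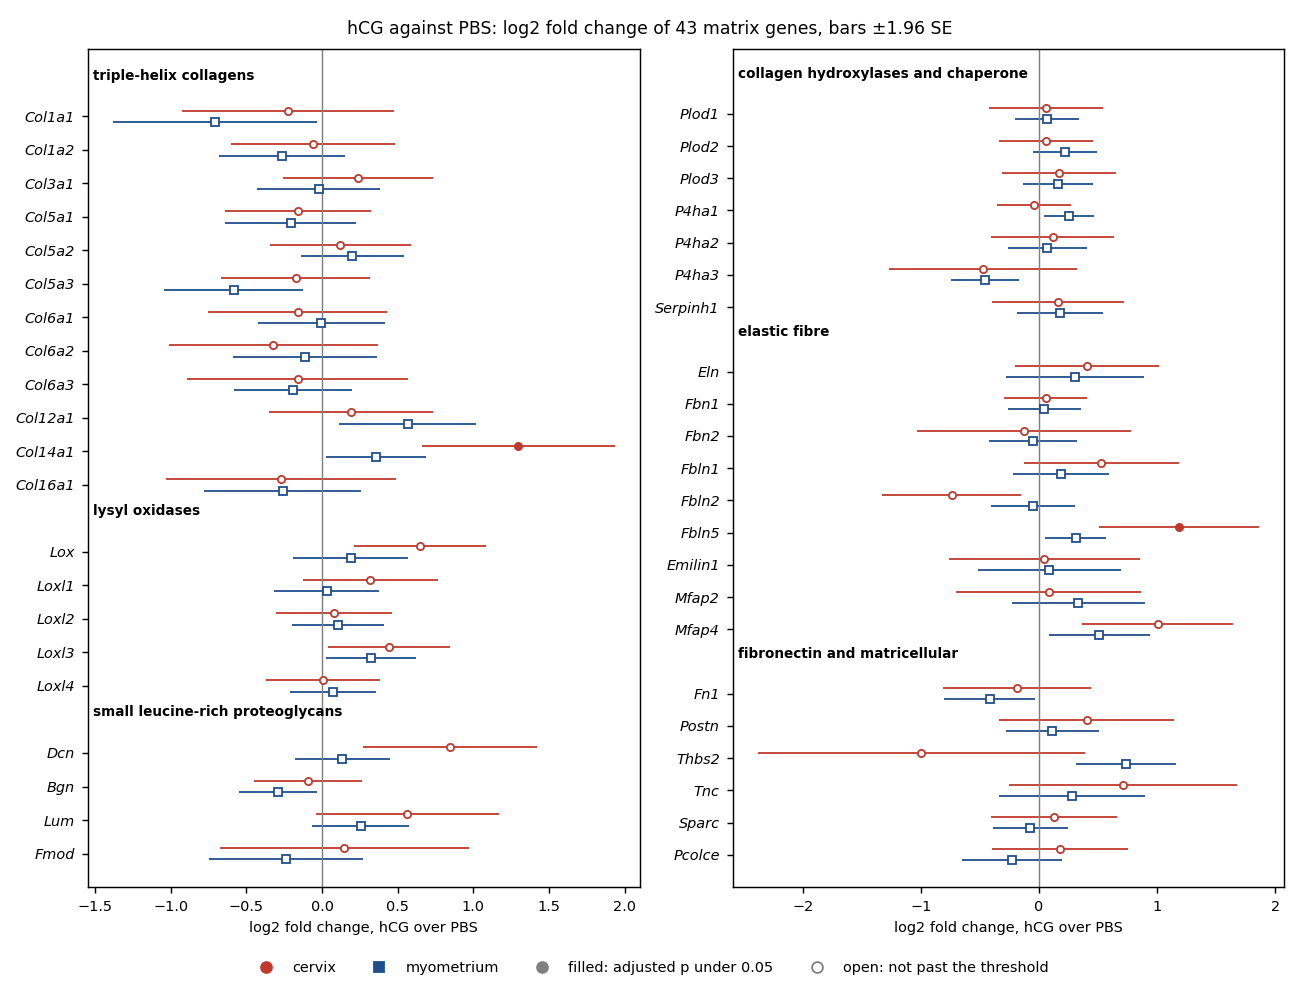
Log2 fold change of each member, hCG over PBS, in cervix (circles) and myometrium (squares), with bars of ±1.96 SE and filled symbols where the edgeR adjusted p was under 0.05. Col14a1 and Fbln5 in cervix are the 2 filled symbols, and most other bars cross 0.

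In myometrium no member passed between hCG and PBS in edgeR's test, and 0.0138% of all 14517 genes did, 0.00689% higher and 0.00689% lower. No member had ranges that lay apart, against 0.00689% of all genes. An unadjusted p under 0.05 was found for 11 members (25.6%), against 15.5% of all genes. DESeq2 called 1 member (Thbs2) and 400 genes in all, and limma voom 0 members and 3 genes. Thbs2 ran from 74.1 to 247 CPM (median 132) in hCG myometrium, against 60.5 to 168 (median 73.5) in PBS myometrium, with overlapping ranges and a log2 fold change of 0.74 (SE 0.22, edgeR adjusted p = 0.109). P4ha3 gave -0.46 and Col12a1 0.57. Fbln5 and Col14a1 gave 0.31 and 0.36 (SE 0.13 and 0.17), against 1.18 and 1.30 in cervix. Col1a1 had the value of -0.71 (interval of ±1.96 SE from -1.38 to -0.03, edgeR adjusted p = 0.329).

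Whether hCG acted differently in the 2 tissues was tested by an interaction over all 40 libraries. These were taken as independent, although by the stated number of mice the tissues would share animals. No member passed in edgeR's test, DESeq2 or limma voom, while edgeR called 0.352% of all 15624 genes. An unadjusted p under 0.05 was found for 4 members (9.3%), against 19.97% of all genes, the response in cervix minus that in myometrium being 0.93 for Col14a1 (SE 0.38, edgeR adjusted p = 0.163), 0.86 for Fbln5 (SE 0.38, 0.195), 0.70 for Dcn (SE 0.34, 0.245) and -1.74 for Thbs2 (SE 0.77, 0.197). The rises of Col14a1 and Fbln5 in cervix are thus not shown to differ from the values in myometrium. Since the tissue contrast in hCG mice minus that in PBS mice is the same quantity, no difference between those contrasts is shown for any member either.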

How the data were processed

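RNA was measured in 40 libraries, 10 per tissue and treatment, grouped by their labels. The authors deposited 1 matrix of raw counts per gene, whole numbers with totals that differ between libraries. Per the submitters' processing notes TopHat2 and mouse build GRCm38 (mm10) were used. The counting tool, annotation and strand setting were not given in the sources used here, so reads of overlapping genes cannot be told apart. Per the labels' protocols the libraries were made from total RNA with a stranded kit. Of 23079 identifiers 23008 matched a RefSeq table of GRCm38.p6, and the 71 others held 0.197% of counts and were kept. Gene coordinates came from that RefSeq table. Strands, exon overlaps and the lengths of merged exons came from GENCODE vM21 on GRCm38.

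Genes were filtered with filterByExpr, scaled by TMM and tested with edgeR 4.0.16 (R 4.3.3, quasi-likelihood F-test, robust dispersion), adjusting p by Benjamini-Hochberg over all genes tested, threshold 0.05. All 43 members passed the filter in every comparison. Each comparison used its own 20 libraries and the interaction all 40. The SE is the log2 fold change over the root of F. Alternatives were DESeq2 1.42.0, limma 3.58.1 voom, RLE and upper-quartile factors, no filter, a block, 1 fit of all libraries, depth classes and left-out libraries. The scripts were tested on simulated data. Where no source says that libraries of a group come from separate animals, p-values measure the spread between these libraries only.

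The members and the further gene and marker lists were chosen with earlier results of these data known. All 43 members could be named, with values in full for the members with the smallest p in a comparison and those a result turns on, and up to 4 genes of each further list past the threshold. The values of 1 gene of the further lists are not reported here.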

Additional observations from a re-analysis of the deposited data

Results flagged for a closer look

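Within each group of 10 libraries, the highest and lowest library of every member was compared with its neighbour on the log2 scale by Dixon's ratio of gap to range (critical value 0.466). Of 172 checks, 9 stood out, which is close to the rate of about 1 in 20 groups that chance alone gives. The values below are therefore listed as the most extreme ones, not as established outliers.

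hCG myometrium library 8 was highest for 3 genes that stood out, Lox at 842 CPM (group median 396), Dcn at 5477 CPM (median 3239) and Lum at 1644 CPM (median 798). Thbs2 stood out in hCG cervix library 5 at 593 CPM (median 61.1) and in PBS myometrium library 1 at 168 CPM (median 73.5). Low values that stood out were Col5a1 in PBS cervix library 2 at 110.0 CPM (median 326), Serpinh1 in hCG cervix library 1 at 131 CPM (median 412), Fbn2 in hCG cervix library 5 at 3.63 CPM (median 11.9) and Fbln5 in PBS myometrium library 8 at 36.4 CPM (median 57.1). The cause of these values was not tested.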

How the results depend on the processing

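The count of members called between tissues was 28 to 33 in hCG mice and 31 to 33 in PBS mice over DESeq2, RLE or upper-quartile factors, no filter, voom, the block and 1 fit of 40 libraries. Leaving out each library in turn gave 28 to 32 in hCG mice and 31 to 35 in PBS mice, and 39 of 43 members kept their call or lack of one in each. Without the libraries with over 1% of counts in Lars2 the PBS count was 31, with 8026 of all genes called. Without hCG cervix libraries 1, 3 and 5 the hCG count was 32, with 7034 of all genes called. These settings and the one on yolk sac markers were chosen after seeing the data.

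The hCG comparison in cervix was less stable. Against 2 members, DESeq2 called 5, no filter 1, voom 1 (Mfap4, neither Col14a1 nor Fbln5), and 1 fit of 40 libraries 6 (5 higher, and Fbln2 lower). The counts over all genes moved too. They were 1331 in the main fit, 2401 with DESeq2, 1048 with no filter, 968 with voom and 3424 in 1 fit of 40 libraries. Leaving out hCG cervix libraries 1, 3 and 5, leaving out PBS cervix libraries 5 to 8, a depth class term, the 10 deeper libraries alone and the 10 shallower alone each gave 0. In that order 0, 1, 508, 242 and 0 of all genes passed. Leaving out 1 library gave 0 to 5: 0 without hCG library 3 or 5 or PBS library 4, 7 or 8, and 5 without hCG library 9. Col14a1 was called in 15 and Fbln5 in 9 of these 20 fits, Mfap4 without hCG library 1, 6 or 9 or PBS library R3, and Dcn and Lox without hCG library 9 or 10. The causes were not tested. In myometrium DESeq2 called 1 against 0, and leaving out 1 library gave 0 to 0. No value past the threshold reversed its sign in any alternative.

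The label numbers were not taken to pair libraries: deviations of same-numbered libraries correlated at -0.25 to 0.57 between tissues (8 of 18 pairs over 0.1) and at -0.19 to 0.30 between treatments (7 of 17). With the replicate block the counts were 33 and 32 between tissues of hCG and PBS mice, 3 in hCG cervix (Lox added), 0 in hCG myometrium and 0 for the interaction. Under the block Mfap2 was among those called between tissues of hCG mice (edgeR adjusted p = 0.0183), and Thbs2 was no longer called between tissues of PBS mice. The lowest count of any member in a library was 16, so depth limits the precision of low members such as Mfap2 and Fmod more than of the others.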
